A study of Mus musculus with 8 samples.

Results

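Wnt ligands and the secreted proteins that modulate them were examined in fibro-adipogenic progenitors (FAPs), the interstitial mesenchymal cells of skeletal muscle, during regeneration. The rule for the group is a list of names and uses no measured value, although the list was drawn up with earlier results of these data known: Wnt2, Wnt5a and Wnt11 as ligands, Sfrp1, Sfrp2 and Sfrp4, Dkk2 and Dkk3, and Rspo3 as secreted modulators, and Axin2 as a transcriptional readout of the pathway. These are 10 of the 55276 gene symbols measured. RNA-seq libraries were made from GFP+ FAPs of the tibialis anterior muscle of adult mice aged 4 to 6 months, with 2 libraries in each of 4 groups: control with the genotype Osr1flox/+;CAGG-Cre+ and Osr1cKO with the genotype Osr1flox/flox;CAGG-Cre+, each at 3 and at 7 days after a freeze injury (dpi). All mice carried the tamoxifen-dependent CAGG-CreER transgene, which is active in all tissues and not in FAPs alone, and received tamoxifen on the day of injury and on the days that followed. Recombination places eGFP in the Osr1 locus, so the sorted control cells had also lost 1 copy of Osr1. The comparison is intended to be of cells with 1 and with no functional copy. GFP in an Osr1cKO cell shows at least 1 recombined copy and does not by itself show loss of both. The paper describes recombination in these libraries as efficient, from a strong reduction of reads in exons 2 and 3. Each 3 dpi library came from 1 mouse and each 7 dpi library from 4 pooled mice, so day cannot be told apart from pooling, nor from a possible change of sequencing instrument.

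Wnt proteins are lipid-modified secreted ligands that bind Frizzled receptors. With the co-receptors Lrp5 and Lrp6 they stabilise beta-catenin, which activates target genes through TCF/LEF factors, and with receptors such as Ror2 and Ryk they act without beta-catenin on cell polarity, movement and calcium. Sfrp proteins carry a Frizzled-like domain and bind Wnts outside the cell, Dkk proteins act at Lrp5 and Lrp6, and R-spondins keep Frizzled receptors at the membrane. In muscle, Wnts and Wnt inhibitors secreted by stromal cells are known to reach muscle stem cells as well as the stromal cells themselves.

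The libraries held between 36513913 and 51092495 fragments recovered from the deposited TPM values, fewer at 7 dpi than at 3 dpi. TPM is a length-normalised share of all transcripts, so levels below can be compared between genes. Osr1, the targeted gene, had 105 and 91.0 TPM in the control pair and 70.7 and 71.9 TPM in the Osr1cKO pair at 3 dpi, and 67.6 and 71.6 TPM against 64.4 and 60.8 TPM at 7 dpi. At each day the Osr1cKO pair was lower than the control pair, with a log2 fold change of -0.45 (SE 0.13) at 3 dpi and -0.28 (SE 0.08) at 7 dpi. The values are per gene and do not separate the deleted exons from the rest. The 6 FAP markers summed to 5313 to 12710 TPM, with Pdgfra, Ly6a, Cd34, Dcn and Gsn present in every library. Ly6a (Sca1) had 5407 and 4232 TPM in the control pair and 3058 and 2020 TPM in the Osr1cKO pair at 3 dpi. The sort took GFP+ cells negative for CD31, CD45 and TER119, which mark endothelial, hematopoietic and erythroid cells. The 6 macrophage, 5 endothelial and 5 muscle stem cell markers summed to at most 57.9, 71.2 and 27.7 TPM. Most of the macrophage sum was Cd68 and Lyz2, most of the endothelial sum Tek, and the largest part of the stem cell sum Itga7. Ptprc had 0.00834 to 0.0515 TPM at 3 dpi and 0.119 to 0.216 TPM at 7 dpi. Pecam1 had 0.584 to 1.19 TPM and 3.56 to 6.25 TPM. For 5 pericyte and smooth muscle, 5 myofiber and 5 Schwann cell markers the highest sums were 115, 53.1 and 17.45 TPM. Low beside the FAP sums, such sums moved with day. Macrophage markers had 10.7 to 19.3 TPM at 3 dpi and 37.9 to 57.9 TPM at 7 dpi, and 5 erythroid genes 0 to 1.44 TPM and 11.7 to 53.3 TPM. Pericyte and smooth muscle markers had 25.2 to 46.7 TPM and 47.1 to 115 TPM, and myofiber markers 5.40 to 10.8 TPM and 32.7 to 53.1 TPM. No macrophage, endothelial or muscle stem cell marker was at 0 in all libraries. The part of these cell types in the differences between days was not tested. The sum of the 5 tenocyte markers moved with genotype and day, with 578 and 815 TPM in the control pair and 1830 and 1599 TPM in the Osr1cKO pair at 3 dpi, and 2391 and 2628 TPM against 3138 and 3545 TPM at 7 dpi. Most of it was Thbs4, while Scx ranged from 0.720 to 26.3 TPM. In sorted populations measured in bulk, fewer cells of a type and less RNA per cell cannot be told apart.

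The promoters of 4 of the genes are shown because their RefSeq and GENCODE transcript starts coincide, which lets the sequence before the start be tied to the expressed gene, and because they cover genes that rose (Dkk2, Axin2), fell (Sfrp2) or passed no test (Wnt11) between the days. Each is the 250 bases before the start in GRCm38.p6 (RefSeq), 5′ to 3′ on the strand of the gene, with a TATA box (TATAAA) or a TCF/LEF core (CTTTGAT or CTTTGAA, both strands searched) in capitals.
Wnt11: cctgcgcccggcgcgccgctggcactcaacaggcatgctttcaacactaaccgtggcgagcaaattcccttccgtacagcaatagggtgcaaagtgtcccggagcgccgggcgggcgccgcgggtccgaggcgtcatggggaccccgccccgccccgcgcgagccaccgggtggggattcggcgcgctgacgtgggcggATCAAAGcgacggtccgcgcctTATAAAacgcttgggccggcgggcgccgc
Sfrp2: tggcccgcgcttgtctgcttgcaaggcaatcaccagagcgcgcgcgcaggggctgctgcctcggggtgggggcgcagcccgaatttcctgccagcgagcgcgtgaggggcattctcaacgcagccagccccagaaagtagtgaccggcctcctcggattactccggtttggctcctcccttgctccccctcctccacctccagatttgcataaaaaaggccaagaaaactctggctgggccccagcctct
Dkk2: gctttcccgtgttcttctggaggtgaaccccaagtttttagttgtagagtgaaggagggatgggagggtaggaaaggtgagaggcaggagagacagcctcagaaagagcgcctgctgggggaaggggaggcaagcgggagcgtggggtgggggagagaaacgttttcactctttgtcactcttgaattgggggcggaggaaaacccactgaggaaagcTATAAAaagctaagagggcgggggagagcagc
Axin2: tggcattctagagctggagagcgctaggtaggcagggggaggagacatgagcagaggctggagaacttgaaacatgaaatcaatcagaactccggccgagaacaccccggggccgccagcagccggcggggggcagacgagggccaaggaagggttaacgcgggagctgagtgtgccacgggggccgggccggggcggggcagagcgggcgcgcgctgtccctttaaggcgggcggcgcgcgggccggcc
They lie at chr7:98834862-98835111, chr3:83766071-83766320, chr3:132085042-132085291 and chr11:108920099-108920348, all on the plus strand. TATAAA stood 29 bases before the start of Wnt11 and 32 bases before that of Dkk2, and 12.4% of 32851 RefSeq promoters held it on either strand within the same 250 bases. A TCF/LEF core, CTTTGAT on the opposite strand, was found 51 bases before the start of Wnt11 and in none of the other 3 windows shown, Axin2 included. CTTTGAT was present in 3.21% and CTTTGAA in 4.46% of all windows. No matches overlapped each other, and no match says only that these letters are absent from this window. All 4 sequences were richer in G and C than the median promoter (52.4%), with 70.8% for Wnt11, 63.6% for Sfrp2, 55.6% for Dkk2 and 69.2% for Axin2. RefSeq promoters were matched for 5 of the 10 genes. The start given for Wnt2 lay 140 bases from its GENCODE start, so its sequence was not shown. Wnt11 has a further RefSeq start, 3733 bases from the GENCODE start, whose 250 bases (56.8% G and C, not shown) held neither a TATA box nor a TCF/LEF core.

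Most of the 10 genes passed the threshold between the days, and few passed those between the genotypes. The comparisons differ in threshold and in the libraries fitted, so these counts do not show which difference was larger. From 3 to 7 dpi in control FAPs, Sfrp1, Sfrp4, Dkk2, Dkk3 and Axin2 rose and Wnt2, Wnt5a and Sfrp2 fell, 8 of 10 genes past the threshold (Benjamini-Hochberg adjusted p below 0.05 by limma and more than 1.2-fold), where 45.4% of 17369 genes tested passed. In Osr1cKO FAPs, 7 of 10 passed, the same genes without Sfrp1, against 40.1% of all genes. Of all genes, 21.3% rose and 24.1% fell in control, and 18.1% rose and 22% fell in Osr1cKO. After scaling, 9 of the 10 genes had all their 7 dpi libraries above or below all their 3 dpi libraries of the same genotype, in control as in Osr1cKO, as did 74.4% and 76.4% of all genes. The shift in the levels of these genes was therefore seen against a background in which over 40% of the genes tested passed the same threshold. Upper quartile scaling moved the median of all genes to 0.15 on the log2 scale in both genotypes and turned the split of all calls from 3695 higher and 4186 lower to 5004 and 3160 in control, and from 3151 and 3822 to 4367 and 2704 in Osr1cKO. Under that scaling the genes named above kept their calls and directions, except Wnt5a in Osr1cKO, which is given below.

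Between the genotypes, Sfrp1 alone of the 10 passed at 3 dpi, with a threshold of more than 1.2-fold at an unadjusted p below 0.05, where 6.26% of 15698 genes passed and 2.37% were higher. At 7 dpi none passed an adjusted p under 0.1 by limma, and 0.0664% of 16577 genes did. At the 3 dpi threshold, applied to 7 dpi, Sfrp1, Dkk3 and Rspo3 were higher in Osr1cKO, 3 of 10, against 11.1% of all genes in either direction and 5.19% higher. The effect of genotype differed between the days for none of the 10 at an adjusted p under 0.05 in limma's interaction test. None of the 17369 genes (0%) passed that test, and 1177 (6.78%) had an unadjusted p below 0.05.

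**Figure D1:**
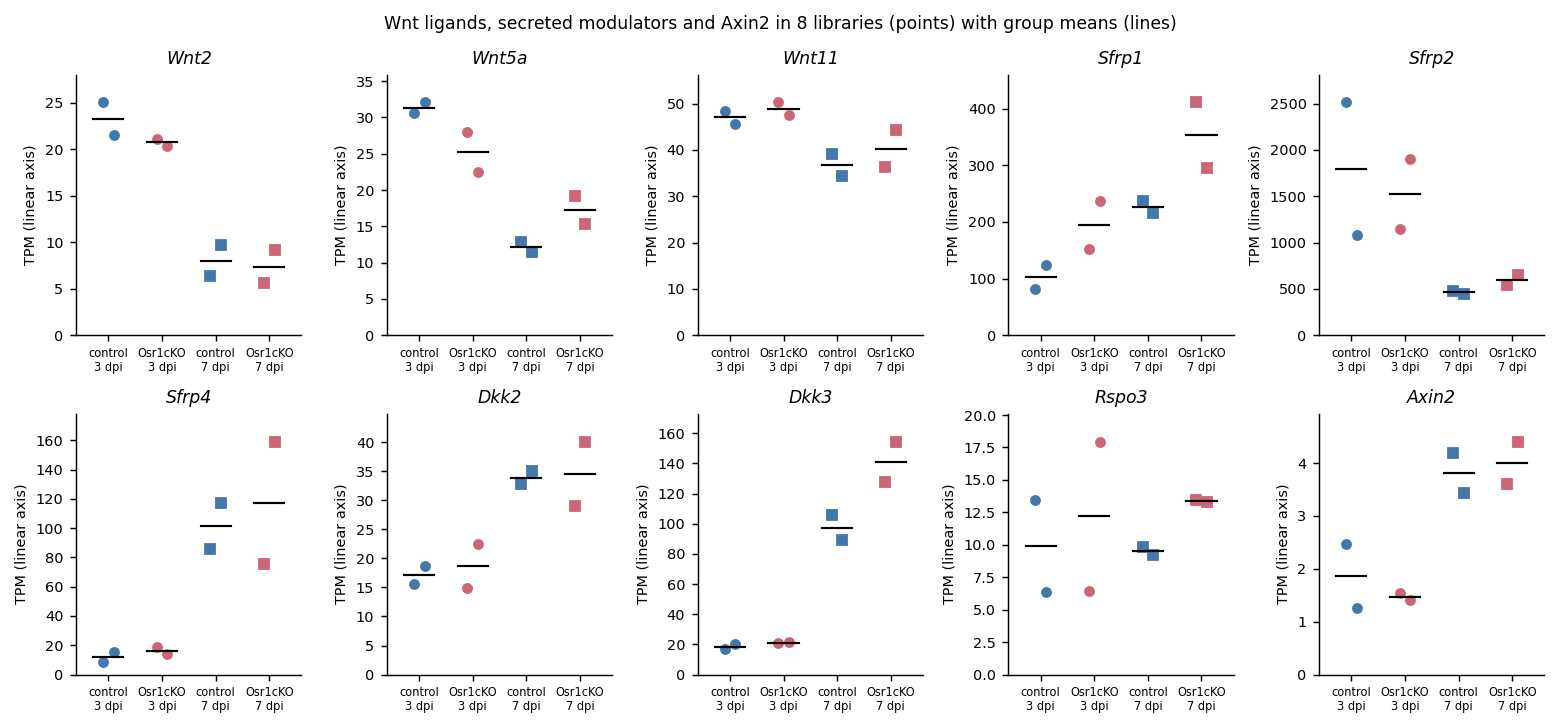
TPM as deposited (vertical axes, linear and from 0) of the 10 genes in each of the 8 libraries (points, blue for control and red for Osr1cKO, circles for 3 dpi and squares for 7 dpi), with group means as lines. Wnt2 and Wnt5a sat lower and Sfrp4, Dkk2, Dkk3 and Axin2 higher in all 7 dpi than in all 3 dpi libraries, and Sfrp1 lay higher in Osr1cKO than in control libraries of the same day.

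Among the ligands, Wnt2 (chr6:17988940-18030585 of GRCm38 in GENCODE M21, as for all positions of genes here, minus strand), which signals through beta-catenin, was present at 25.0 and 21.5 TPM in the control pair and 21.1 and 20.4 TPM in the Osr1cKO pair at 3 dpi. At 7 dpi it stood at 6.34 and 9.68 TPM in the control pair and 5.63 and 9.14 TPM in the Osr1cKO pair. All 7 dpi libraries lay under all 3 dpi libraries, while the genotypes overlapped at 7 dpi and were separated by 21.5 against 21.1 TPM at 3 dpi. On the log2 scale of scaled TPM plus 1, used for all fold changes here, Wnt2 fell by 1.38 in control (SE 0.23, 95% interval -1.93 to -0.83, adjusted p = 0.00328 by limma) and by 1.47 in Osr1cKO (SE 0.23, adjusted p = 0.00321). Its group means at 3 dpi were 23.3 ± 2.49 TPM in control and 20.7 ± 0.552 TPM in Osr1cKO (SD, n = 2). At 7 dpi they were 8.01 ± 2.37 and 7.38 ± 2.48 TPM. The difference between genotypes was -0.16 (SE 0.15, 95% interval -0.55 to 0.23, adjusted p = 0.893 by limma) at 3 dpi. At 7 dpi it was -0.23 (SE 0.26, 95% interval -0.88 to 0.43, adjusted p = 0.763), and neither passed.

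Wnt5a (chr14:28504750-28527448, plus strand), the best known ligand of beta-catenin-independent signalling, had 30.7 and 32.1 TPM in the control pair and 27.9 and 22.5 TPM in the Osr1cKO pair at 3 dpi. Its 7 dpi levels were 12.8 and 11.4 TPM in the control pair and 19.2 and 15.4 TPM in the Osr1cKO pair. It was thus lower in both Osr1cKO libraries at 3 dpi and higher in both at 7 dpi, and its 4 groups did not overlap on the deposited scale. The difference between genotypes was -0.31 (SE 0.17, adjusted p = 0.831 by limma) at 3 dpi and 0.35 (SE 0.16, adjusted p = 0.428) at 7 dpi, and neither passed. With 2 libraries per group such separation was common. After scaling, 36.4% of genes at 3 dpi and 45.8% at 7 dpi had both Osr1cKO libraries outside both control libraries. On deposited TPM at 7 dpi, 42.8% of genes had both Osr1cKO libraries above both controls and 10.7% had both below. Scaled, these shares were 22.9% and 22.8%. They apply to each gene below whose Osr1cKO libraries both lay above both controls at 7 dpi. Between the days Wnt5a fell by 1.23 in control (SE 0.17, adjusted p = 0.00156) and by 0.58 in Osr1cKO (SE 0.17, adjusted p = 0.0326). The call in Osr1cKO was lost with upper quartile scaling (-0.39, adjusted p = 0.0971), with no filter on low genes (-0.61, adjusted p = 0.0654), without Osr1cKO 3 dpi replicate 1 (-0.43) and without Osr1cKO 7 dpi replicate 2 (-0.39).

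Wnt11 (chr7:98835112-98855195, plus strand), a second ligand known for polarity signalling, was the most abundant Wnt in every library. It had 48.5 and 45.7 TPM in the control pair and 50.2 and 47.6 TPM in the Osr1cKO pair at 3 dpi, and 39.1 and 34.3 TPM against 36.3 and 44.3 TPM at 7 dpi. The 7 dpi libraries were all below the 3 dpi libraries, but the change missed the threshold, with -0.28 (SE 0.12, 95% interval -0.56 to 0.00, adjusted p = 0.0937 by limma) in control and -0.35 (SE 0.12, adjusted p = 0.0538) in Osr1cKO. Its level overlapped between genotypes at both days, with an interval of -0.27 to 0.37 at 3 dpi and -0.29 to 0.29 at 7 dpi for the log2 difference.

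The 19 Wnt genes together summed to 139 and 141 TPM in the control pair and 150 and 116 TPM in the Osr1cKO pair at 3 dpi, and to 96.1 and 100.0 TPM against 97.1 and 126 TPM at 7 dpi. Wnt11 made up 32.3 to 40.9% of this sum across the 8 libraries. The share of Wnt2 was 14.1 to 18.1% at 3 dpi and 5.80 to 9.68% at 7 dpi, and that of Wnt9a ranged from 15.1 to 26.1% with no separation of days. Wnt10b, a beta-catenin ligand known to oppose adipogenesis, took 0.733 to 1.50% at 3 dpi and 6.43 to 11.1% at 7 dpi. It had 2.08 and 2.13 TPM in the control pair and 1.46 and 0.853 TPM in the Osr1cKO pair at 3 dpi, and 6.49 and 11.1 TPM against 6.24 and 11.8 TPM at 7 dpi. Its rise was 1.68 in control (SE 0.33, adjusted p = 0.00564 by limma) and 2.12 in Osr1cKO (SE 0.33, adjusted p = 0.0029). Less abundant Wnt16 rose as well, by 1.34 in control and 1.38 in Osr1cKO, while Wnt3, Wnt3a, Wnt7a, Wnt8b and Wnt9b stayed under 0.05 TPM in every library.

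**Figure D2:**
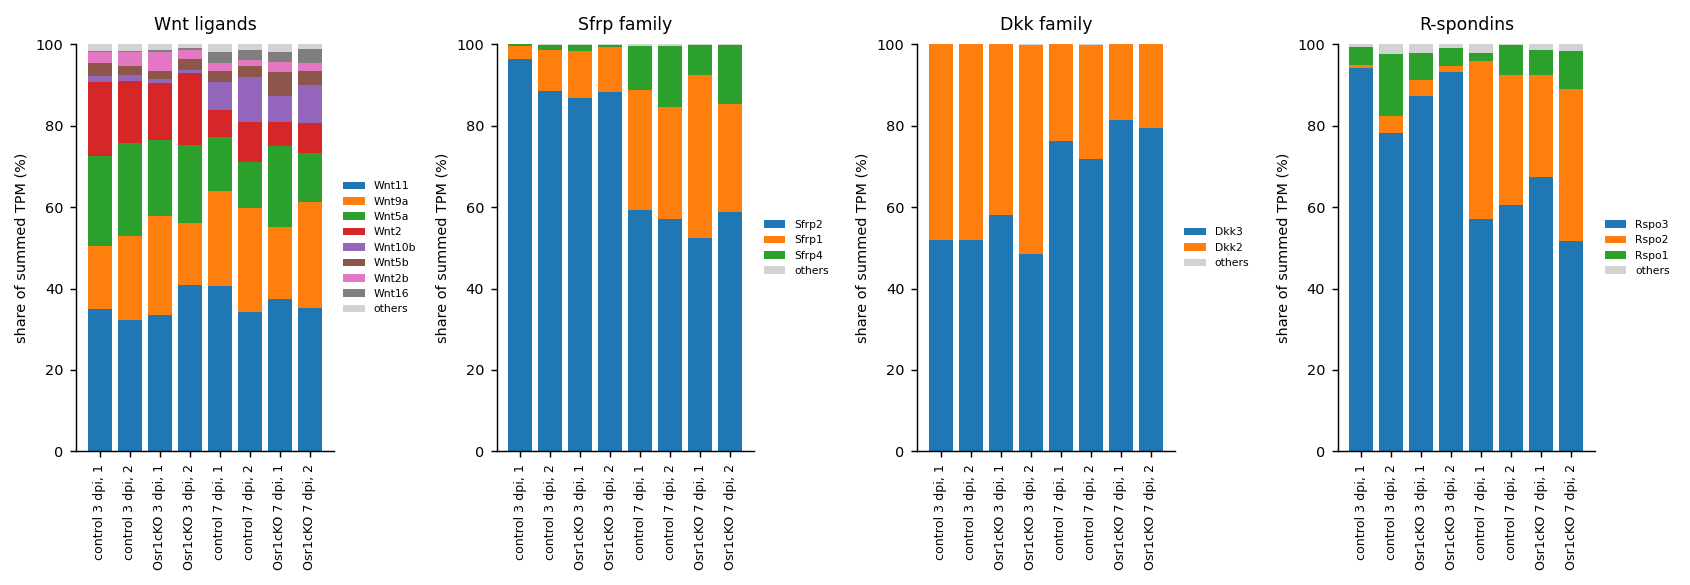
Share of the summed TPM (vertical axes, percent) taken by each gene of the Wnt, Sfrp, Dkk and R-spondin families in each of the 8 libraries (bars, replicate number after the group), with genes that never reached 3% joined as others. Sfrp2 held 86.9 to 96.5% of Sfrp transcripts at 3 dpi and 52.5 to 59.4% at 7 dpi, and Rspo2 held 0.768 to 4.18% of R-spondin transcripts at 3 dpi and 25.1 to 38.8% at 7 dpi.

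Sfrp1 (chr8:23411502-23449632, plus strand), a secreted Wnt-binding protein, was the only member to pass the unadjusted threshold between genotypes at 3 dpi. Of all genes 6.26% passed it, and none (0%) passed at an adjusted p under 0.1 by limma. Sfrp1 had 81.4 and 124 TPM in the control pair and 152 and 238 TPM in the Osr1cKO pair at 3 dpi, and 237 and 216 TPM against 411 and 296 TPM at 7 dpi. Both Osr1cKO libraries were above both control libraries at each day, and control cells at 7 dpi were in the range of Osr1cKO cells at 3 dpi. The difference at 3 dpi was 0.91 (SE 0.29, 95% interval 0.16 to 1.66, adjusted p = 0.772 by limma), a 1.88-fold higher level. At 7 dpi it was 0.49 (SE 0.18, adjusted p = 0.372), which did not pass. The call at 3 dpi was lost without control replicate 1 (0.60), without Osr1cKO replicate 2 (0.62), with no filter on low genes (0.92) and at an adjusted threshold. The tenocyte marker sum given above was also higher in both Osr1cKO libraries at each day, with all 5 markers higher at both, 1 of them called at 3 dpi. At 7 dpi none passed the adjusted threshold and 4 of the 5 passed the unadjusted one, as Sfrp1, Dkk3 and Rspo3 did. The part of these markers in the Sfrp1, Dkk3 and Rspo3 results was not tested. Between the days Sfrp1 rose by 1.24 in control (SE 0.30, adjusted p = 0.013) and changed by 0.80 in Osr1cKO (SE 0.30, adjusted p = 0.0651). The control call was lost without control 3 dpi replicate 1 (0.89, adjusted p = 0.0504) and without control 7 dpi replicate 1 (1.16, adjusted p = 0.0639), and in Osr1cKO the change passed on deposited TPM (0.87), with upper quartile scaling (1.01) and with a filter on mean TPM (0.89). The interaction was -0.43 (SE 0.42, adjusted p = 0.931 by limma), so the effect of genotype was not shown to differ between the days.

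Sfrp2 (chr3:83766321-83774316, plus strand), a close relative of Sfrp1, was the most abundant of the 10 genes. At 3 dpi the control pair had 2513 and 1082 TPM and the Osr1cKO pair 1142 and 1902 TPM, and at 7 dpi Sfrp2 stood at 477 and 449 TPM in the control pair and 540 and 650 TPM in the Osr1cKO pair. Every 7 dpi library was lower than every 3 dpi library, and the 3 dpi libraries were spread widely within each genotype. Sfrp2 fell by 1.76 in control (SE 0.38, adjusted p = 0.00888 by limma) and by 1.38 in Osr1cKO (SE 0.38, adjusted p = 0.0253). The call was lost in control without control 7 dpi replicate 2 (-1.69, adjusted p = 0.0533). In Osr1cKO it was lost with no filter (-1.41) and without Osr1cKO 3 dpi replicate 2 (-1.04), 7 dpi replicate 1 (-1.27) or 7 dpi replicate 2 (-1.47). At 3 dpi the difference between genotypes was -0.16 with an interval of -1.38 to 1.05, and its sign turned without control replicate 1 (0.43). At 7 dpi the Osr1cKO libraries were both higher, with 0.22 (SE 0.11, adjusted p = 0.456). An antisense gene, Gm26771, overlaps 16.1% of the exonic bases of Sfrp2, and whether strand was used in counting is not stated. For Wnt11, Wnt5a and Axin2 the overlap with a gene on the opposite strand was 8.8%, 4.58% and 3.8% of exonic bases.

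Sfrp4 (chr13:19623104-19632994, plus strand) rose more than any other member between the days in control. It had 8.55 and 15.4 TPM in the control pair and 18.6 and 13.7 TPM in the Osr1cKO pair at 3 dpi, and 85.9 and 117 TPM against 75.5 and 159 TPM at 7 dpi. The genotypes overlapped at both days, and the days were far apart. The rise was 3.09 in control (SE 0.39, 95% interval 2.18 to 4.01, adjusted p = 0.00105 by limma) and 2.64 in Osr1cKO (SE 0.39, adjusted p = 0.00249). Between genotypes the difference was 0.44 (SE 0.33) at 3 dpi, and without control replicate 2 it became 0.83 and passed the 3 dpi threshold; at 7 dpi it was -0.003 with an interval of -0.84 to 0.84. Taken as one pool, the 5 Sfrp genes summed to 2604 and 1222 TPM in the control pair and 1314 and 2154 TPM in the Osr1cKO pair at 3 dpi, and to 803 and 784 TPM against 1028 and 1108 TPM at 7 dpi. Sfrp1 took 3.13 to 11.6% of this pool at 3 dpi and 26.7 to 40.0% at 7 dpi, and Sfrp4 took 0.328 to 1.42% at 3 dpi and 7.34 to 14.9% at 7 dpi. The composition of the Sfrp pool thus differed between the days in every library, while Sfrp5 never reached 0.6 TPM. Frzb, a further Frizzled-related protein, rose by 1.31 in control (SE 0.19) and 0.67 in Osr1cKO (SE 0.19), and did not exceed 3.81 TPM.

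Dkk2 (chr3:132085292-132180304, plus strand), which binds Lrp5 and Lrp6, had 15.7 and 18.7 TPM in the control pair and 14.9 and 22.5 TPM in the Osr1cKO pair at 3 dpi, and 32.9 and 35.0 TPM against 29.0 and 40.1 TPM at 7 dpi. Its levels were higher in all 7 dpi libraries and overlapped between genotypes at each day. Dkk2 rose by 1.02 in control (SE 0.22, adjusted p = 0.00794 by limma) and 0.80 in Osr1cKO (SE 0.22, adjusted p = 0.0235). In Osr1cKO this call was lost with no filter (0.77) and without 3 dpi replicate 1 (0.52) or 7 dpi replicate 2 (0.61). The difference between genotypes had an interval of -0.50 to 0.69 at 3 dpi and of -0.48 to 0.24 at 7 dpi.

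Dkk3 (chr7:112116017-112159057, minus strand), the divergent member of the family, not known as a typical Lrp6 antagonist, had 16.9 and 20.1 TPM in the control pair and 20.7 and 21.3 TPM in the Osr1cKO pair at 3 dpi. Its 7 dpi values were 106 and 89.2 TPM in the control pair and 128 and 154 TPM in the Osr1cKO pair. Dkk3 was thus close to Dkk2 in level at 3 dpi and well above it at 7 dpi, where it made up 71.8 to 81.5% of Dkk transcripts. It rose by 2.41 in control (SE 0.15, adjusted p = 0.000179 by limma) and by 2.62 in Osr1cKO (SE 0.15, adjusted p = 0.000337), and these calls held without any single library. At 7 dpi the genotypes differed by 0.40 (SE 0.12, 95% interval 0.09 to 0.70, adjusted p = 0.33), with both Osr1cKO libraries above both controls, which did not pass the threshold for 7 dpi. Dkk1 and Dkk4, classical antagonists of the pathway, were at most 0.112 TPM and at 0 TPM in every library.

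Rspo3 (chr10:29452416-29535867, minus strand), a secreted amplifier of Wnt signalling that acts through Lgr receptors, had 13.5 and 6.33 TPM in the control pair and 6.47 and 17.9 TPM in the Osr1cKO pair at 3 dpi, and 9.82 and 9.24 TPM against 13.5 and 13.3 TPM at 7 dpi. The 3 dpi libraries of one genotype differed more than the groups did, and the higher library of each genotype at 3 dpi was the one that was also higher in Sfrp2. Neither day comparison passed, with 0.10 (SE 0.44) in control and 0.21 (SE 0.44) in Osr1cKO. At 7 dpi the difference between genotypes was 0.33 (SE 0.11, adjusted p = 0.354 by limma), with both Osr1cKO libraries above both controls. Exons of an antisense gene, Gm48159, share 13.1% of the exonic bases of Rspo3. Rspo2, a related R-spondin, was at 0.110 and 0.338 TPM in the control pair and 0.294 and 0.269 TPM in the Osr1cKO pair at 3 dpi, and at 6.66 and 4.89 TPM against 5.02 and 9.69 TPM at 7 dpi. Rspo2 rose by 2.51 in control (SE 0.28, adjusted p = 0.000681) and 2.60 in Osr1cKO (SE 0.28, adjusted p = 0.000983). Rspo3 accordingly made up 78.3 to 94.2% of R-spondin transcripts at 3 dpi and 51.6 to 67.4% at 7 dpi.

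Axin2 (chr11:108920349-108950783, plus strand), a scaffold of the beta-catenin destruction complex and a common transcriptional readout of beta-catenin activity, was the least abundant of the 10 genes. It had 2.46 and 1.26 TPM in the control pair and 1.54 and 1.40 TPM in the Osr1cKO pair at 3 dpi, and 4.20 and 3.44 TPM against 3.61 and 4.40 TPM at 7 dpi. These levels rested on 88 to 249 recovered fragments per library. All 7 dpi libraries were above all 3 dpi libraries, and the genotypes overlapped at each day. Axin2 rose by 0.84 in control (SE 0.23, adjusted p = 0.0205 by limma) and 0.97 in Osr1cKO (SE 0.23, adjusted p = 0.0141). The control call was lost with no filter (0.82), when control libraries were fitted alone (0.85), and without control 3 dpi replicate 2 (0.55), 7 dpi replicate 1 (0.72) or 7 dpi replicate 2 (0.98). The Osr1cKO call was lost with no filter (0.94) and without 3 dpi replicate 1 (1.01), 3 dpi replicate 2 (0.91) or 7 dpi replicate 2 (0.88). The difference between genotypes had an interval of -0.83 to 0.47 at 3 dpi and of -0.47 to 0.37 at 7 dpi.

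**Figure D3:**
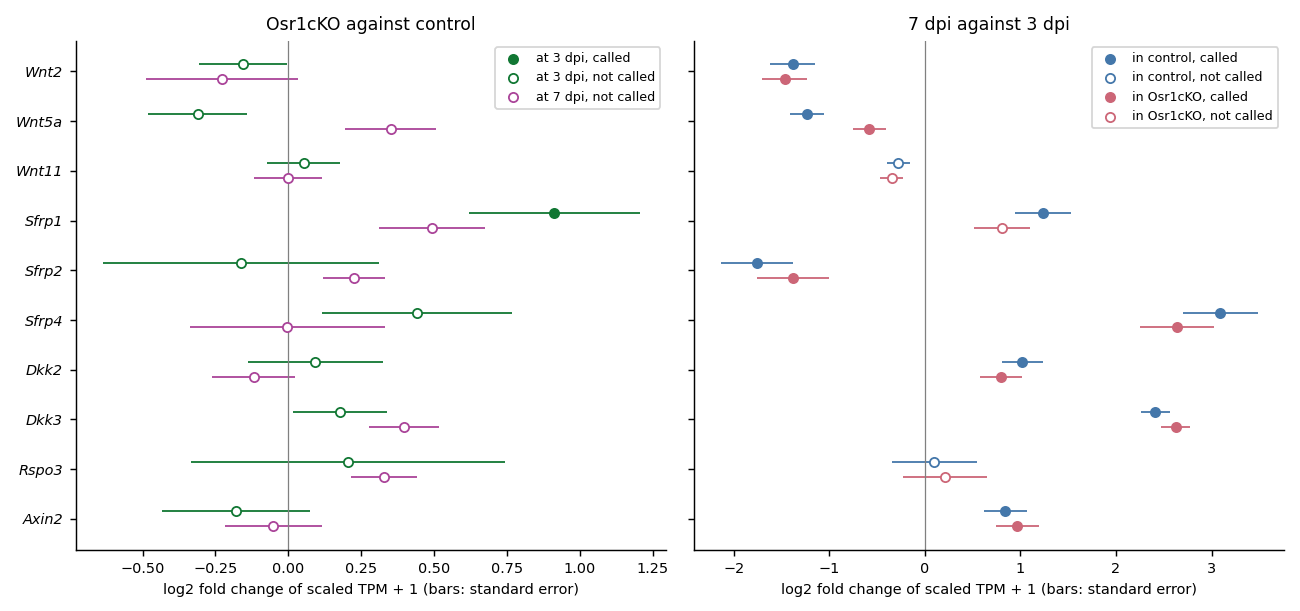
Log2 fold changes of scaled TPM plus 1 (horizontal axes) of the 10 genes with their standard errors (bars), for Osr1cKO against control (left, at 3 dpi in green and at 7 dpi in purple) and for 7 dpi against 3 dpi (right, control in blue and Osr1cKO in red), with filled points for genes that passed the threshold of the comparison. Sfrp1 at 3 dpi is the filled point on the left, and Sfrp4 and Dkk3 lie farthest to the right among the changes between days.

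The rest of the pathway was described by 8 lists holding 107 genes, of which 89 were tested between the days. In control FAPs 23 of the 89 rose and 7 fell, and in Osr1cKO FAPs 17 rose and 7 fell, beside 45.4% and 40.1% of all genes in either direction. The median log2 fold change of these genes was 0.11 in control and 0.13 in Osr1cKO, beside 0.02 for all genes in both. Of the 10 genes described here it was 0.47 in control and 0.50 in Osr1cKO. Wls, which carries Wnts to the cell surface, rose from 44.6 and 49.5 to 82.0 and 84.3 TPM in control and from 54.9 and 48.0 to 89.2 and 97.7 TPM in Osr1cKO, by 0.88 (SE 0.12) and 0.78 (SE 0.12). Trabd2b, a membrane protease that inactivates Wnts, fell by 0.75 in control (SE 0.22) and changed by -0.56 in Osr1cKO (SE 0.22, adjusted p = 0.0831 by limma). Porcn, the enzyme that lipidates Wnts, rose by 0.97 in Osr1cKO and stood at 0.77 in control (adjusted p = 0.0566).

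Of 21 receptors and co-receptors tested, 6 rose and 2 fell in control, and 3 rose and 3 fell in Osr1cKO. Of all genes, 45.4% and 40.1% passed in either direction, a share that applies to each list below as well. Fzd6 rose by 1.53 in control (SE 0.18) and 1.14 in Osr1cKO (SE 0.18). Fzd8 rose by 1.03 in control (SE 0.18) and 0.70 in Osr1cKO (SE 0.18, adjusted p = 0.0177 by limma). Ryk, a receptor for Wnt5a, fell in both genotypes, by 0.71 in control (SE 0.16, adjusted p = 0.00934 by limma) and 0.80 in Osr1cKO (SE 0.16, adjusted p = 0.00668). Lgr5 and Lgr6 are both R-spondin receptors and moved in opposite directions in both genotypes. Lgr5 rose by 0.90 in control (SE 0.15) and 0.61 in Osr1cKO (SE 0.15), to means of 1.49 and 1.32 TPM. Lgr6 fell by 1.63 in control (SE 0.43), from a mean of 2.88 to 0.208 TPM, and by 2.35 in Osr1cKO (SE 0.43), from 7.59 to 0.547 TPM. Its 3 dpi values were 2.09 and 3.67 TPM in the control pair and 11.3 and 3.85 TPM in the Osr1cKO pair. The higher Osr1cKO mean at 3 dpi thus came mostly from 1 library. Of the 12 genes of the destruction complex list, none passed in control, where the most abundant, Ctnnb1 (beta-catenin), had 301 and 291 TPM at 3 dpi and 243 and 249 TPM at 7 dpi. In Osr1cKO the scaffold Axin1 fell by 0.32 (SE 0.09). Among 13 nuclear mediators, Pygo1, a co-activator of beta-catenin, rose by 1.52 in control and 0.82 in Osr1cKO, and the co-repressor Tle2 by 0.91 and 0.90.

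Of 12 beta-catenin target genes tested besides Axin2, 2 rose and 1 fell in control, and 1 rose and 1 fell in Osr1cKO. The shares of all genes in either direction were 45.4% and 40.1%. Ccnd1 (cyclin D1), which drives entry into S phase, fell from 176 and 106 to 16.0 and 16.3 TPM in control and from 88.0 and 87.4 to 14.4 and 19.3 TPM in Osr1cKO, by 2.93 (SE 0.21) and 2.39 (SE 0.21). Axin2 and Ccnd1 thus moved in opposite directions between the days. Lgr5, which is in this list too, rose in both genotypes, and Nkd2, a feedback inhibitor, rose by 0.65 in control (SE 0.18). In the list of the polarity and calcium branches, 8 of 17 rose and 2 fell in control, and 6 rose and 2 fell in Osr1cKO. Of all genes, 21.3% rose and 24.1% fell in control, and 18.1% rose and 22% fell in Osr1cKO. Prickle2, a core polarity protein, rose from 8.39 and 8.48 to 18.8 and 19.0 TPM in control, by 1.15 (SE 0.13), and by 0.96 in Osr1cKO (SE 0.13). Dact2, a regulator of Dishevelled, rose by 1.22 and 0.98 in control and Osr1cKO.

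**Figure D4:**
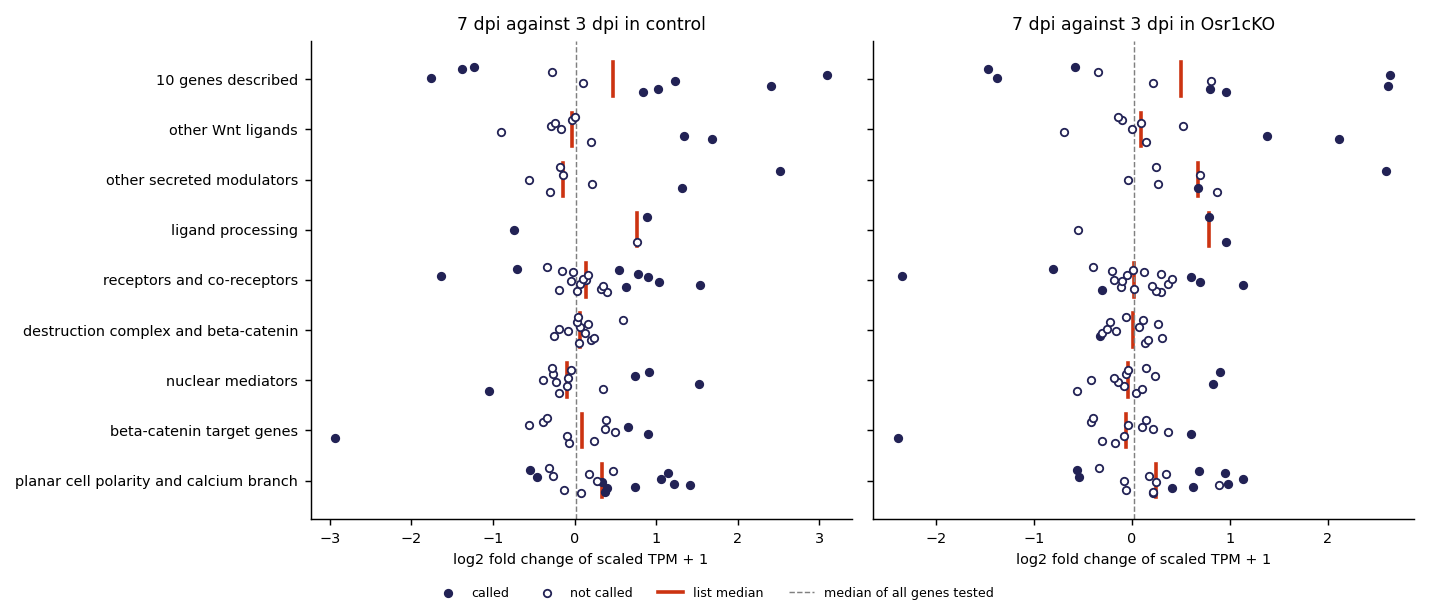
Log2 fold changes between 7 and 3 dpi (horizontal axes) of every tested gene of the pathway lists (points, filled where called, spread vertically for legibility only) in control (left) and Osr1cKO (right), with each list's median in red and the median of all genes tested as a dashed line. The 10 genes described here spread from -1.76 to 3.09 in control, and Ccnd1 is the lowest point of the target genes in both panels.

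Between the genotypes, 1 of 88 other pathway genes tested was higher and 1 lower in Osr1cKO at 3 dpi, beside 6.26% of all genes in either direction. These were Ptk7, a co-receptor of polarity signalling, with 42.0 and 47.5 TPM in the control pair and 70.8 and 59.3 TPM in the Osr1cKO pair (0.53, SE 0.16, adjusted p = 0.772 by limma), and Wnt6, with at most 0.769 TPM in any library. None passed at 7 dpi, when 5 were higher and 7 lower of 88 at the threshold used for 3 dpi, which 11.1% of all genes passed. The median difference over these genes was -0.003 at 3 dpi and -0.07 at 7 dpi, beside 0.01 and 0.00 for all genes.

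The genes whose log2 TPM ran most closely with each member across the 8 libraries are given as a description, since the libraries share days and genotypes and 10385 genes of at least 5 TPM were compared. Sfrp4 was followed by Cys1 (Pearson r = 0.994) and by Dpt (r = 0.992), the latter encoding dermatopontin, an abundant matrix protein with a mean of 1330 TPM. Dkk3 ran with Ecrg4 (r = 0.996) and with Col11a1 (r = 0.995), a fibrillar collagen. Wnt5a ran with Aen and Ddx47 (both r = 0.993), Wnt2 with Rpl19-ps1 and Capn1 (both r = 0.993) and Sfrp2 with Lnx1 (r = 0.993). For Dkk2 the closest were Svil and Zfp638 (both r = 0.987), and for Axin2 Tab3 (r = 0.993) and Mir1938 (r = 0.992). The lowest leading values were those of Rspo3 with Wapl (r = 0.973), Wnt11 with Abhd10 (r = 0.983) and Sfrp1 with Gm11451 (r = 0.986).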

How the data were processed

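RNA of sorted GFP+ FAPs was sequenced from stranded, polyA-selected libraries. Per the methods, reads were aligned with STAR to mm10, and the authors deposited TPM per gene symbol in a table for each library, computed from fragment counts normalised with DESeq2; the counter, annotation and use of strand are not given in the sources used here. The methods name a pair of instruments and the labels a single one, so the instrument of each day was not settled. Symbols listed more than once (106) lost their 109 further entries. Fragments were recovered from TPM and GENCODE M21 exon lengths, available for 53273 symbols, and of values under 50, 98.7 to 98.9% came to whole fragments within 0.02; low genes carry the most counting error. Genes with at least 10 fragments in 2 libraries and 15 in all were tested (without a length, mean TPM of at least 1).

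Libraries were scaled by trimmed log ratios (30%, and 5% by level) and log2(TPM + 1) fitted with limma 3.58.1 (lmFit, eBayes with trend; R 4.3.3, Python 3.11.15), per day for genotypes and over 8 libraries for days and their interaction. The pseudocount understates changes of low genes. Intervals use limma's moderated degrees of freedom. Thresholds between genotypes are those of the study's methods, but the test is not. The paper reported far more genes at 7 dpi than the 11 that passed here, and 188 passed by limma-voom on recovered fragments. A gene that did not pass here may therefore have passed in the paper. The paper's discussion lists Sfrp1 among the genes upregulated in Osr1cKO FAPs, without a day or a value. The labels do not say whether replicates shared a litter. P-values rest on the spread between replicate libraries, pooled over all groups in the fit and moderated by eBayes towards a trend over all genes. They do not measure the spread of a single group, and the day comparisons have the same standard error in both genotypes. For 7 dpi the spread is between pools of 4 mice. Over all genes, replicate numbers showed no pairing of samples (correlations of deviations from -0.144 to 0.07). A shared effect on some genes is not excluded by these correlations. At 7 dpi Wnt2, Sfrp4 and Dkk2 were higher in TPM in replicate 2 than in replicate 1 of both genotypes. Wnt5a, Sfrp1 and Rspo3 were lower in replicate 2 of both, and the remaining members differed in direction between the genotypes. The procedure was tested on simulated fragments with a fixed dispersion of 0.02, at an adjusted p under 0.1. Of 2-fold changes, 76% were recovered at 3 dpi, 63.3% at 7 dpi and 23.3% for the interaction. For 1.5-fold changes these were 8.67%, 12.7% and 2.67%. Among the calls, 10.1%, 16.6% and 10.5% were false. A larger spread between libraries was not simulated.

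Members, gene lists and tests were chosen with earlier results of these data known. Named genes were the members, Osr1, markers, per list and comparison up to 3 called genes of smallest p (or the 3 most abundant where none was called), and the 2 most similar genes per member. Alternatives were other scalings, filters, pseudocounts, thresholds, limma-voom, robust eBayes, a replicate block, other libraries in the fit and leaving out each library.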

Additional observations from a re-analysis of the deposited data

Results flagged for a closer look

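Wnt5a was singled out because its difference between genotypes pointed in opposite directions at the 2 days, with no overlap of libraries at either. The log2 fold change of Osr1cKO against control was -0.31 at 3 dpi and 0.35 at 7 dpi, and their difference was 0.65 (SE 0.24, 95% interval 0.08 to 1.22, adjusted p = 0.711 by limma's interaction test over 8 libraries), which did not pass an adjusted p of 0.05. Of all genes, 6.78% had an unadjusted interaction p under 0.05. The days also differ in pooling, which cannot be told apart from time.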

How the results depend on the processing

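With 2 libraries per group, most limits came from single libraries. Of the alternatives run on values that had passed a threshold, 238 kept direction and call, 27 kept direction but no longer passed, and none reversed. The cause of the changes was not tested. The count of members called at 3 dpi was 0 with no filter and 0 at an adjusted p under 0.1, and 0 to 2 with 1 library left out (0 without control replicate 1 and without Osr1cKO replicate 2, and 2 without control replicate 2). At 7 dpi it was 3 at the unadjusted threshold. Between the days in Osr1cKO it was 3 with no filter and 3 to 6 with 1 library left out (4 without 3 dpi replicate 1, 3 without 7 dpi replicate 2), and in control 6 to 7. For the interaction it was 1 at an unadjusted p. Counts over all genes moved more. At 3 dpi 982 passed, 404 to 2803 with 1 library left out (2803 without control replicate 2), 1803 with all 8 libraries in the fit and none at an adjusted p below 0.1. At 7 dpi 11 passed, and 0 on deposited TPM, with upper quartile scaling, with a pseudocount of 5, with a filter on mean TPM, with no filter and with all 8 libraries, 27 with the replicate block, 188 by limma-voom and 5 to 334 with 1 library left out. Between the days the lowest counts were 4695 in control and 3780 in Osr1cKO with 1 library left out. For the interaction no gene passed, 1177 did at an unadjusted p below 0.05, 30 with no filter and up to 69 with 1 library left out (69 without control 3 dpi replicate 1).

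Reversed values were all of members that had not passed. On deposited TPM without further scaling, which moved the median of all genes to 0.109 at 7 dpi, the difference between genotypes at 7 dpi was 0.13 for Wnt11, 0.13 for Sfrp4, 0.009 for Dkk2 and 0.055 for Axin2, and the interaction was 0.044 for Wnt2 and 0.073 for Wnt11. At 7 dpi Wnt11 was at 0.000 by limma-voom and 0.017 with all 8 libraries, and Sfrp4 at 0.016 with all 8. Leaving out 1 library gave these ranges. At 3 dpi they were -0.77 to 0.43 for Sfrp2, -0.16 to 0.35 for Dkk2, -0.49 to 0.12 for Axin2, -0.44 to 0.86 for Rspo3 and -0.007 to 0.12 for Wnt11. At 7 dpi they were -0.11 to 0.11 for Wnt11, -0.17 to 0.069 for Axin2, -0.51 to 0.049 for Wnt2, -0.51 to 0.50 for Sfrp4 and -0.32 to 0.076 for Dkk2. For Rspo3 between the days they were -0.37 to 0.55 in control and -0.45 to 0.86 in Osr1cKO. For the interaction they were -0.20 to 0.94 for Sfrp2, -0.55 to 0.77 for Rspo3, -0.16 to 0.41 for Axin2, -0.50 to 0.037 for Dkk2, -0.17 to 0.045 for Wnt11, -0.36 to 0.20 for Wnt2 and -0.95 to 0.048 for Sfrp4.

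With the replicate number as a block, 1, 0, 8, 7 and 0 members were called at 3 dpi, at 7 dpi, between the days in control and in Osr1cKO, and for the interaction, as without it. Same-numbered samples correlated at -0.117 at 3 dpi and at -0.144 between control libraries of the 2 days; a crossed pairing, chosen after seeing the data, also gave 1 and 8 members.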

Other observations

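Among the other secreted modulators, Draxin, an extracellular antagonist of Wnt signalling also known in axon guidance, was chosen after its values were seen. It had 6.07 and 5.05 TPM in the control pair and 2.64 and 7.28 TPM in the Osr1cKO pair at 3 dpi, and 3.91 and 4.29 TPM against 8.72 and 10.3 TPM at 7 dpi. Its difference at 7 dpi was 0.92 (SE 0.14, adjusted p = 0.218 by limma), with both Osr1cKO libraries above both controls, and it did not pass. The ligand Wnt5b, also chosen after its values were seen, had 2.76 and 2.77 TPM in the control pair and 5.88 and 4.27 TPM in the Osr1cKO pair at 7 dpi (0.58, SE 0.19, adjusted p = 0.345), and at 3 dpi it had 4.60 and 3.11 TPM against 2.80 and 3.31 TPM. Ptk7 was higher in both Osr1cKO libraries at 7 dpi as well as at 3 dpi, with 50.5 and 34.5 TPM in the control pair and 86.1 and 63.7 TPM in the Osr1cKO pair (0.68, SE 0.23, adjusted p = 0.353). Draxin, Wnt5b and Ptk7 are among the 5 other pathway genes that were higher at 7 dpi at the unadjusted threshold. A further 7 were lower, including Fzd4 (-0.50, SE 0.10), Lrp5 (-0.36, SE 0.08), Lrp6 (-0.30, SE 0.08) and Ror1 (-0.36, SE 0.10). None of them passed the adjusted threshold.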
